A study of Mus musculus with 10 samples.

Results

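Neutrophils carry bactericidal proteins in granules, shed others from the cytosol, and find their way into tissue through receptors on their surface. The 9 genes described here code for such proteins: Mpo and Elane of the azurophil granules, Camp, Ngp and Ltf of the specific granules, S100a8 and S100a9 of the cytosol, and the receptors Csf3r and Cxcr2. They were chosen by name, as every probe on the arrays that carries 1 of these gene names or its current symbol, and this gave 11 of 41174 probes and 9 of 27670 genes. Ltf and Cxcr2 have 2 probes each, and 2 genes stand in the files under older names, Elane as Ela2 and Cxcr2 as Il8rb. S100a8 and S100a9 are neither granule proteins nor receptors, so the set is wider than granules and receptors in that respect.

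The granules of a neutrophil are filled in the bone marrow, azurophil granules first and specific and gelatinase granules later, and the messages for azurophil proteins are largely gone before the cell enters the blood. Csf3r, the receptor of granulocyte colony-stimulating factor, keeps the lineage supplied, and Cxcr2 responds to the chemokines that the airway lining and macrophages release on injury. Neutrophils gather in the lungs of smokers and of mice that breathe cigarette smoke, which is the background for looking at these genes here.

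Whole lungs of female BALB/c mice, an inbred strain bought at 6 to 8 weeks of age, were compared after 8 weeks of cigarette smoke or of room air, with 5 mice in each group and 1 array per lung. The smoke came from 12 cigarettes per exposure, in 2 exposures a day of 50 min each on 5 days a week. Cells were not sorted, so each array holds the RNA of all cell types of a lung. Each array carries lung RNA in the red channel and a reference RNA in the green channel, and the level given below is the log2 ratio of lung over reference after loess normalization within the array, unless another scale is named.

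The sample labels name a single dye, so what each channel holds was inferred from its signals. The Y-linked genes Ddx3y, Eif2s3y and Kdm5d were well above background in green on 10 of 10 arrays and in red on 2, 0 and 1 of them, although all lungs came from females. The lung genes Sftpc, Scgb1a1 and Ager were by contrast 6.39, 6.72 and 4.83 log2 units above green in the red channel. The authors' own table of processed values has the groups exchanged against the scanner files: of 282045 values in it, 282045 equal those of the array with the same number in the other group, within 1e-04. Every direction below therefore rests on the scanner files as they are assigned to the samples and on this reading of the channels.

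The 10 arrays lie on 5 slides, and each slide holds the smoke and the room air array of the same number. Every smoke array took place 1 and every room air array place 2, so an effect of place cannot be told apart from that of smoke. Red spots well above background made up 67.8 to 76.7% of the spots in room air (median 71.7%) and 64.9 to 77.5% in smoke (median 69.5%), and the small number of arrays limits how precise any value can be.

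Room air lung 1 stood apart from the other room air lungs. It lay far above the rest of its group, by Dixon's criterion, in 848 probes, where the next room air array did so in 426, and it was the highest of all 10 arrays in 14.5% of 41133 probes, close to the 13.6% of room air 3. Its array quality weight in limma was 0.459, against 0.816 to 1.84 for the other 9 arrays. Of the 34 measured genes on 4 lists of neutrophil genes, it held the highest ratio of all 10 arrays in 17, and of 9 ligands that draw or feed neutrophils it did so in 8. Values of the 7 of the 9 genes with signal are therefore given both with all 10 arrays and without room air 1. Without it, 4 room air lungs remain against 5 smoke-exposed lungs. The share of its red spots above background was 71.7%, the median of its group.

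With all 10 arrays, the adjusted p of limma was under 0.05 for 2906 of 41173 probes, or 7.06%, 1793 higher and 1113 lower with smoke. Of the 9 genes 1 passed, Camp, which was higher with smoke. Without room air 1, 3660 probes or 8.89% were called, and 3 of the 9 genes passed, S100a8, Camp and Ltf, all higher with smoke. The slide pairs the lungs, and with the replicate number as a block 5019 probes or 12.2% were called and 2 of the 9 genes, Camp and Ltf. When only red was used, divided by the 75th percentile of each array, 1759 probes or 4.27% were called and 0 of the 9 genes by limma, with 2 of them at an unadjusted p under 0.05, as were 14.7% of all probes. Without room air 1, a setting of the red channel added after seeing the data, 2252 probes or 5.47% were called, and S100a8, Camp and Ltf passed again. Array weights in the first fit gave 3614 probes or 8.78% and Camp and Ltf. Of 3 further settings added after seeing the data, red alone with the block gave 3091 probes or 7.51% and 0 of the 9 genes by limma, with 2 at an unadjusted p under 0.05, as were 24.5% of all probes. Without room air 1, the scanner software's ratio gave 3428 probes or 8.33% and S100a8 and Camp, and red after quantile normalization 2869 probes or 6.97% and S100a8, S100a9, Camp and Ltf. The median log2 difference of the 9 genes was 0.16 with all arrays and 0.50 without room air 1, beside -0.0032 and -0.0044 over all probes. In the red channel alone these medians were 0.42 and 0.80, beside 0.0012 and -0.048 over all probes. In whole lung, more neutrophils and more RNA per neutrophil cannot be told apart, nor can fewer cells and less RNA per cell.

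**Figure D1:**
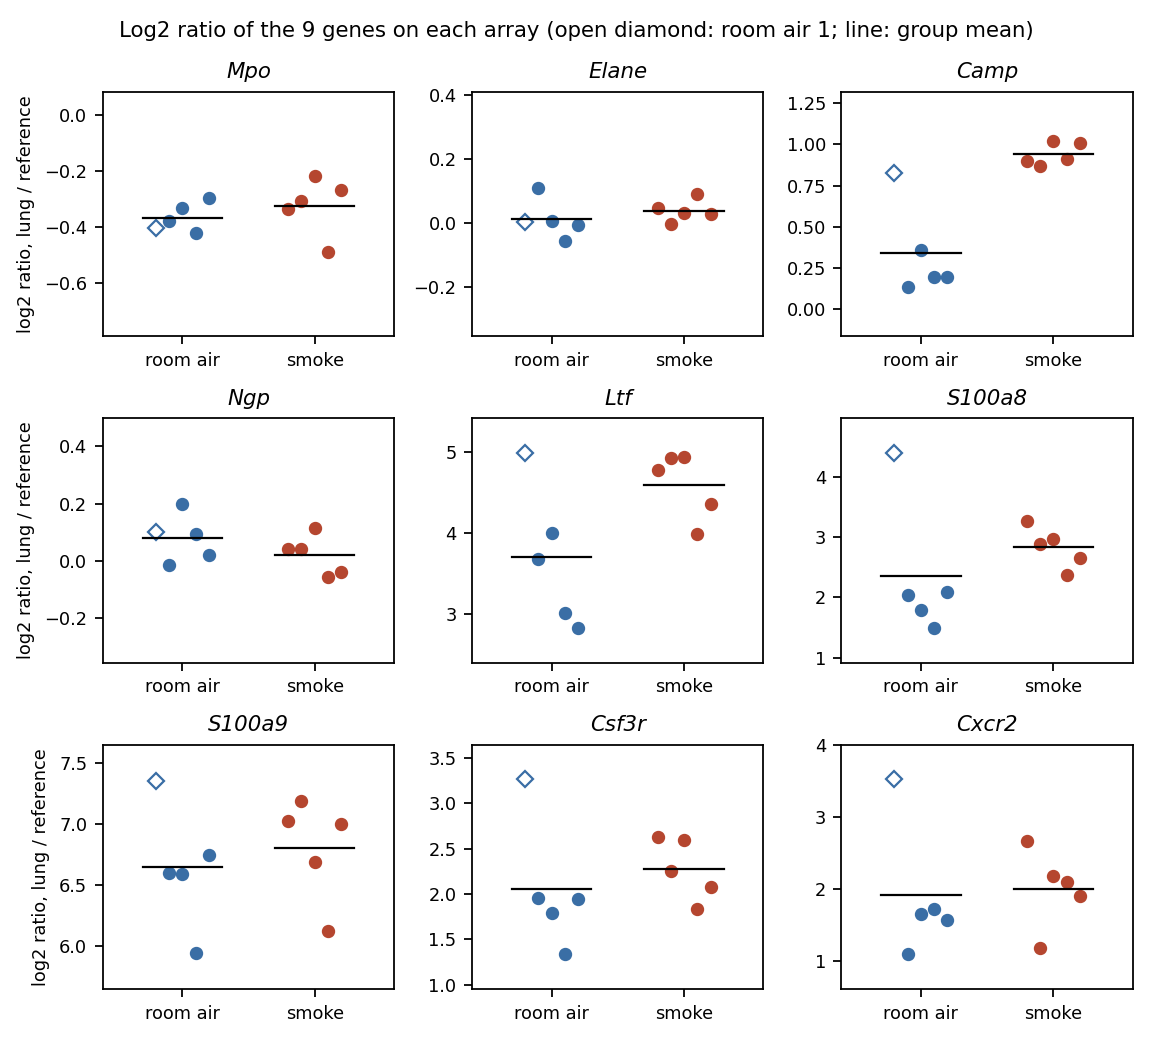
Log2 ratio of lung over reference (vertical axis) for each of the 9 genes on the 5 room air and 5 smoke arrays, with the group mean as a line and room air 1 as an open diamond. Room air 1 is the highest array for S100a8, S100a9, Ltf, Csf3r and Cxcr2, and Elane and Ngp stay near 0.

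The azurophil granule genes were close to the limit of the arrays. Mpo, myeloperoxidase, which makes hypochlorous acid from hydrogen peroxide and chloride, had ratios of -0.40, -0.38, -0.33, -0.42 and -0.30 in room air lungs 1 to 5 and of -0.34, -0.31, -0.22, -0.49 and -0.27 in smoke-exposed lungs 1 to 5. The groups overlapped, and every lung lay below the reference. The difference was 0.04 ± 0.06 (SE) with an adjusted p of 0.810, or 0.03 with 0.879 without room air 1, and it was -0.12 in the scanner software's own log ratio and -0.18 in the red channel alone, so no direction can be given. Red signal of Mpo was well above background in all 5 room air lungs, and among the smoke-exposed lungs in 4, the exception being smoke 5. Elane, neutrophil elastase, which digests elastin, was not well above background in either channel on any of the 10 arrays, and no fold is given for it. Mpo was measured at chr11:87873508-87874283 and Elane at chr10:79668034-79668093 in mm7, the mouse build that the array design names.

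Camp, the precursor of the antimicrobial peptide cathelicidin, was the gene of the 9 that separated the groups. Its ratios were 0.83, 0.13, 0.36, 0.19 and 0.19 in room air lungs 1 to 5 and 0.90, 0.87, 1.02, 0.91 and 1.01 in smoke-exposed lungs 1 to 5. All 5 smoke-exposed lungs were above all 5 room air lungs, with room air 1 just below the lowest of them and room air 2 to 5 well apart. It was the only 1 of the 9 genes whose groups did not overlap, a pattern that 6.89% of 41133 probes showed in either direction. The difference was 0.60 ± 0.12 (SE) with a limma adjusted p of 0.00881 and higher smoke values on 5 of 5 slides, and the exact permutation p was 0.00794, the smallest that 5 lungs against 5 allow. With room air 1 left out it was 0.72 (adjusted p = 2.36e-05). The adjusted p remained under 0.05 whichever single array was left out, with 0.0280 as the highest of the 10 values.

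Camp is a dim probe, at chr9:109544107-109544166 in mm7. Its red signal was well above background in all room air lungs but room air 2 and in every smoke-exposed lung, and its green signal in none of the 10 arrays. The background correction adds 50 units to every signal, which shrinks the difference of a dim probe, and no fold is given for Camp. On the scale of red signal over the array's 75th percentile, Camp stood at -3.66, -6.85, -5.05, -4.59 and -4.72 in room air lungs 1 to 5 and at -3.30, -3.31, -3.36, -3.08 and -2.80 in smoke-exposed lungs 1 to 5. The smoke-exposed lungs were again all higher. On this scale the difference was 1.80, the adjusted p was 0.0756 and the call was lost. Room air 2, the lowest value, was not above background, so the size of the difference is uncertain, and in the scanner software's ratio it was 2.30. Leaving out room air 1 made the difference 2.13 with an adjusted p of 0.0229. Over the 11 limma fits that use all 10 arrays, of which 1 was added after seeing the data, the adjusted p of Camp ran from 0.00069 to 0.0756.

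Ltf, lactoferrin, binds iron in the specific granules and is secreted by glands of the airway as well. The brighter of its 2 probes, at chr9:110738071-110738130 in mm7, gave 4.99, 3.68, 4.00, 3.02 and 2.83 in room air lungs 1 to 5 and 4.78, 4.92, 4.94, 3.99 and 4.36 in smoke-exposed lungs 1 to 5. Room air 1 was the highest array of all, and smoke 4 was just below room air 3, so the groups overlapped in this probe with or without room air 1. The difference of 0.90 ± 0.36 (SE, 1.86-fold) did not pass, with an adjusted p of 0.207 and an exact permutation p of 0.0952. Without room air 1 it was 1.22 (2.32-fold) and passed with an adjusted p of 0.0137 and an exact permutation p of 0.0238. With the replicate number as a block, which compares the 2 arrays of a slide, the same 0.90 passed with an adjusted p of 0.0307, and smoke was higher on 4 of 5 slides. The other Ltf probe had a difference of 0.89 with an adjusted p of 0.250, and 1.24 with 0.0154 without room air 1. Without that lung its groups did not overlap, and the exact permutation p was 0.00794. That probe did not pass with the block (adjusted p = 0.0515). Over the 11 limma fits with all 10 arrays, the adjusted p of the brighter probe ran from 0.0307 to 0.669. In the scanner software's ratio of that probe room air 1, at 5.64, was below room air 3 and below every smoke-exposed lung but smoke 4.

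Ngp, neutrophilic granule protein, was not well above background in any of the 5 room air lungs and was so in 1 smoke-exposed lung, smoke 3. Its ratios lay between -0.06 and 0.20 and no fold is given. Ngp and Elane thus gave no level that could be compared.

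S100a8 and S100a9 pair as calprotectin, a calcium and zinc binding complex that makes up much of the neutrophil cytosol. S100a8, measured at chr3:90800058-90800117 in mm7, had ratios of 4.39, 2.04, 1.80, 1.49 and 2.09 in room air lungs 1 to 5 and of 3.26, 2.88, 2.97, 2.37 and 2.65 in smoke-exposed lungs 1 to 5. Room air 1 exceeded every smoke-exposed lung, while room air 2 to 5 were all below the lowest of them. With all arrays the difference was 0.47 ± 0.46 (SE, 1.38-fold) and did not pass (adjusted p = 0.718). With room air 1 left out it was 0.97 (1.96-fold), the groups did not overlap, and it passed with an adjusted p of 0.00458 and an exact permutation p of 0.0159. The call for S100a8 hence rests on leaving out this 1 lung.

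S100a9, measured at chr3:90822865-90822924 in mm7, had ratios of 7.35, 6.60, 6.59, 5.95 and 6.75 in room air lungs 1 to 5 and of 7.03, 7.19, 6.69, 6.12 and 7.00 in smoke-exposed lungs 1 to 5. Room air 1 was again the highest, and both groups had their lowest value in the array numbered 4. The difference was 0.16 ± 0.25 (SE) with an adjusted p of 0.852, and 0.33 with 0.495 without room air 1. Without room air 4 instead, it was -0.02. In the red channel alone the difference was 0.32 with all arrays and 0.80 without room air 1, with adjusted p values of 0.901 and 0.0681. It passed without room air 1 after quantile normalization of the red channel (adjusted p = 0.0353), a fit also added after seeing the data. In the scanner software's ratio smoke 2 (7.46) and smoke 5 (7.30) were above room air 1 (7.29).

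Csf3r, the receptor for granulocyte colony-stimulating factor, was measured at chr4:125488697-125488756 in mm7 and gave 3.26, 1.96, 1.79, 1.33 and 1.95 in room air lungs 1 to 5 and 2.63, 2.25, 2.59, 1.84 and 2.07 in smoke-exposed lungs 1 to 5. Room air 1 was above all other arrays, and without it smoke 4 still overlapped with room air 2 and 5. The difference was 0.22 ± 0.30 (SE, 1.16-fold, adjusted p = 0.826), or 0.52 (1.43-fold, adjusted p = 0.115) without room air 1. Room air 1, at 4.00, lay inside the range of the other arrays in the scanner software's log ratio, where the difference was -0.04. In the red channel alone it was 0.42 with all arrays and 0.91 without room air 1, with adjusted p values of 0.887 and 0.112. Csf3r did not pass in any of these fits, though the exact permutation p of the log2 ratio without room air 1 was 0.0476.

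Cxcr2, the receptor for chemokines of the Cxcl1 kind, was measured at chr1:74402562-74402621 in mm7 by its brighter probe and had ratios of 3.52, 1.09, 1.65, 1.72 and 1.57 in room air lungs 1 to 5 and of 2.67, 1.17, 2.18, 2.09 and 1.90 in smoke-exposed lungs 1 to 5. Room air 1 was the highest and room air 2 the lowest, with smoke 2, on the same slide as room air 2, next to it. The difference was 0.09 ± 0.41 (SE, adjusted p = 0.954), and 0.50 without room air 1 (adjusted p = 0.320). It was -0.11 without room air 2 and -0.07 without smoke 1. The dimmer Cxcr2 probe ran from 0.27 to 1.21 in room air and from 0.45 to 1.02 in smoke, with a difference of 0.12 (adjusted p = 0.835), or 0.29 without room air 1 (adjusted p = 0.171).

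**Figure D2:**
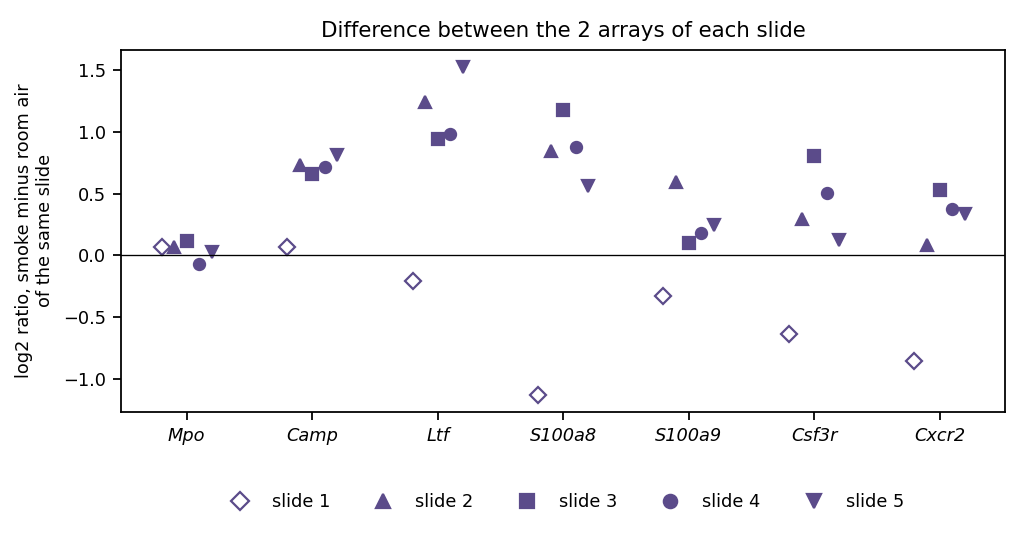
Log2 ratio of the smoke array minus that of the room air array on the same slide (vertical axis) for the 7 genes with signal, with slide 1 as an open diamond. Slide 1 lies below 0 for 5 of the 7 genes, and slides 2 to 5 lie above 0 for 6 of them.

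Within the slides the same lung stood out in the log2 ratio after loess. On slide 1, which holds room air 1 and smoke 1, 5 of the 7 genes with signal were lower in the smoke-exposed lung, and the exceptions were Mpo and Camp. On slides 2 to 5, 6 of the 7 were higher in the smoke-exposed lung on each of the 4 slides, Mpo being the exception. The share of all probes with these patterns is not given, so the counts are descriptions. For S100a8 the differences on slides 1 to 5 were -1.13, 0.84, 1.17, 0.88 and 0.56. For Csf3r they were -0.63, 0.29, 0.80, 0.50 and 0.12, and for Cxcr2 -0.85, 0.08, 0.53, 0.38 and 0.34. In this ratio slide 1 thus ran against the rest for each of these 3 genes. For Ltf the 5 differences were -0.21, 1.24, 0.94, 0.98 and 1.53, and for Camp, higher on all 5 slides, they were 0.07, 0.73, 0.66, 0.72 and 0.81. Leaving out both arrays of slide 1 and keeping the block, limma called 6 of the 9 genes, S100a8, S100a9, Camp, Ltf, Csf3r and Cxcr2, among 6088 probes or 14.8%. In the scanner software's ratio, only S100a8 and Camp were higher with smoke on each of slides 2 to 5. There S100a9 was lower on slides 3 and 4, Ltf on slide 3, Csf3r on slides 3 and 5 and Cxcr2 on slide 2. Ltf was higher with smoke on slide 1 in that ratio, and slide 1 did not stand alone for Csf3r or Cxcr2.

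The reference channel was not flat for every gene. For S100a8 the green signal, on the scale of the array's 75th percentile, stayed between -2.35 and -1.99 while red ran from -0.21 to 2.77. For Csf3r green ran from -6.09 to -2.83 and red from -1.92 to 1.18, and both were lowest in room air 4 and highest in room air 1. The scanner software's log2 ratio of Csf3r accordingly spanned only 3.73 to 4.21 over the 10 arrays. Green also spanned -2.39 to 0.12 for S100a9 and -5.17 to -2.31 for Ltf. For Ltf the red signal alone was 3.27, 1.22, 1.38, 0.93 and 0.37 in room air lungs 1 to 5 and 2.85, 3.00, 2.81, 2.61 and 2.43 in smoke-exposed lungs 1 to 5. Apart from room air 1, all room air lungs were below all smoke-exposed lungs. The Ltf difference in red was 1.31 with an adjusted p of 0.184, and 1.76 with 0.00183 without room air 1, whereas the scanner software's ratio gave 0.32 and 0.36 with adjusted p values of 0.669 and 0.629. Why green moved with red in these genes was not tested.

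**Figure D3:**
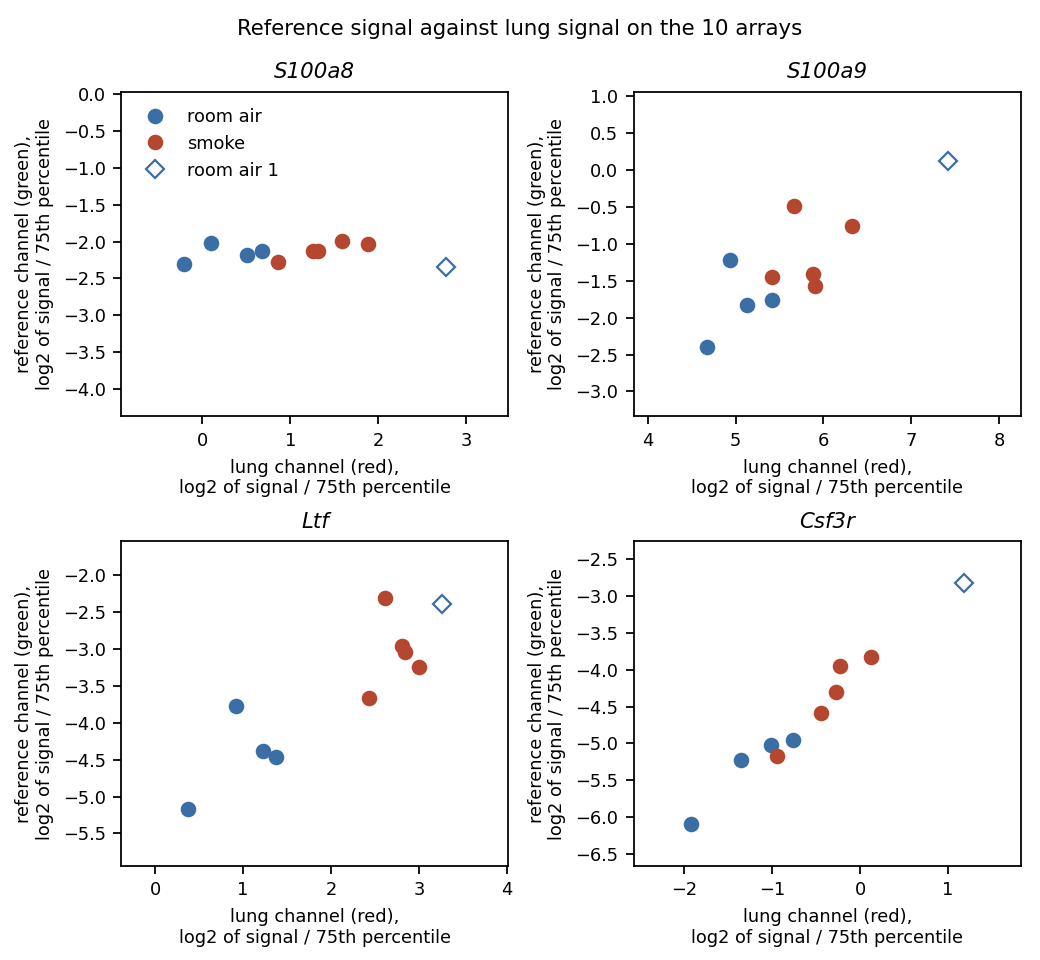
Green (reference) against red (lung) signal, both as log2 of the signal over the array's 75th percentile, for S100a8, S100a9, Ltf and Csf3r on the 10 arrays. Green is flat for S100a8 and follows red for Csf3r, and room air 1 has the highest red signal in all 4 panels.

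Across the arrays some of the 9 genes moved alike. Of the 5 genes well above background in red on all 10 arrays, S100a8 and Csf3r were the most alike, with a Pearson r of 0.97 over 10 arrays and 0.93 over the 9 without room air 1. In the scanner software's ratio this likeness was absent, with an r of -0.14 over 10 arrays and -0.14 over 9. S100a9 and Cxcr2 were the least alike, with 0.36 and -0.02. These values are descriptions, since the arrays share slides and room air 1 weighs on each of them. Among 13910 other genes well above background on every array, those most like S100a8 over 10 arrays were Asprv1 (r = 0.98), Hpx, Nuak2, Grk2 and Ptpn1, and those most like S100a9 were Grrp1 (r = 0.95), Jtb, Wdr43, Marchf7 and Ifitm1. For Ltf they were Bpifb1 (r = 0.98), Muc5b, Prom1, Abcc8 and Ssh1. Csf3r was most like Grk2 (r = 0.97), Fgg, Fpr2, Pilrb1 and Ogfr, and Cxcr2 most like Trabd (r = 0.97), Pim1, Mxd1, Nacc1 and Arpc3. Over 9 arrays, leaving out room air 1, the first of each set kept an r of 0.97, 0.95, 0.98, 0.93 and 0.93, in the same order.

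The promoters of Camp, Ltf and S100a8 are shown because these 3 genes passed without room air 1, and that of Csf3r as the one most like S100a8 among the 5 compared over the arrays in the log2 ratio after loess. They were picked after the values were seen, and S100a9 and Cxcr2, which passed in other fits, are not shown. The bases are those before the transcription start in RefSeq on GRCm38.p6, which is another build than that of the probe positions, and all 9 genes had a matching entry. Capitals mark TTGCNNAA, the core that C/EBP factors bind, and GAGGAA, the core of PU.1, each searched on both strands, and no match of 1 motif overlapped a match of the other. S100a8 lies at chr3:90668821-90669070 and Csf3r at chr4:126024409-126024658, Ltf at chr9:111019042-111019291, all 3 on the plus strand, and Camp at chr9:109849457-109849706 on the minus strand.
S100a8: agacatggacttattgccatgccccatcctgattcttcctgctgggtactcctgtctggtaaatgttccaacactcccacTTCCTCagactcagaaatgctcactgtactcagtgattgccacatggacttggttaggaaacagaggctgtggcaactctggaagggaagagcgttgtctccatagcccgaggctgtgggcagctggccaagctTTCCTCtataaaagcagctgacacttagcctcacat
Csf3r: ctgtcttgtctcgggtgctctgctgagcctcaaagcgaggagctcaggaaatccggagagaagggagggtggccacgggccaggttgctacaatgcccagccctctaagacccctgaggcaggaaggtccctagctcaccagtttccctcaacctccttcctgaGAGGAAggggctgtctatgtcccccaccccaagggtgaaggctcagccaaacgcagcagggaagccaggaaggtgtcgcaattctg
Ltf: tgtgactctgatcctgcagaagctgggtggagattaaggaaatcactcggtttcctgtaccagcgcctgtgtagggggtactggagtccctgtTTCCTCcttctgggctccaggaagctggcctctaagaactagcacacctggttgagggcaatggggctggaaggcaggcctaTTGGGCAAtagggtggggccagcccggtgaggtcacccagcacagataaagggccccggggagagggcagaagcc
Camp: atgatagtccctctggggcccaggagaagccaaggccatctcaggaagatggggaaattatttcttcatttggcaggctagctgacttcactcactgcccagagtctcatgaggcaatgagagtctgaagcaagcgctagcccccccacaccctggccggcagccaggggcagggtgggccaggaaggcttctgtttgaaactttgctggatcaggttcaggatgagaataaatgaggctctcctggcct
S100a8 holds the PU.1 letters 170 and 36 bases before its start, Csf3r 86 bases before, and Ltf holds the PU.1 letters 157 and the C/EBP letters 75 bases before. Camp holds neither set of letters in this window. Over all 9 genes, 6 held GAGGAA and 3 held TTGCNNAA in the 250 bases before the start, beside 23.3% and 9.56% of 32851 mouse promoters. A match is a description of the letters and not a site that was measured.

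Beyond the 9, the 4 lists of neutrophil genes hold 25 further genes with a probe, of which 6 passed with all arrays and 10 without room air 1, every one of them higher with smoke. Counted with the 9 genes, 7 of 34 passed with all arrays and 13 without room air 1, and 0 were lower in either fit. Of all probes 7.06% passed with all arrays, 1793 of 2906 of them higher. Without room air 1 it was 8.89%, with 2211 of 3660 higher. The median difference of the 34 was 0.11, and 0.34 without room air 1. In the red channel alone it was 0.38, and 0.72 without room air 1. Stfa1 and Ly6g had no probe named for them and were not analysed here. Of these genes Lcn2, Hp and Ltf are also made by airway epithelium, and Itgb2, Itgam and C5ar1 by macrophages and monocytes.

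The azurophil list (Mpo, Elane, Prtn3, Ctsg, Prss57 and Ms4a3) had 0 of 6 genes past limma's threshold, with or without room air 1, and 0 at an unadjusted p under 0.05, by limma or by the exact Wilcoxon test. In the red channel with the block, a setting added after seeing the data, Prss57 passed as lower with smoke (adjusted p = 0.0471), and it did not pass there without the block (adjusted p = 0.121). Its red signal was well above background in 3 room air lungs and no smoke-exposed lung, so no difference is given. The differences in log2 ratio of the list lay between -0.08 and 0.06, and Elane and Ms4a3 were above background in red on no array. Of the 9 genes of the specific and gelatinase granules (Camp, Ngp, Ltf, Lcn2, Mmp8, Mmp9, Olfm4, Hp and Pglyrp1), 3 passed with all arrays, Camp, Lcn2 and Mmp8, and without room air 1 Ltf and Pglyrp1 passed too. Their differences ran from -0.09 to 2.63. Lcn2, lipocalin 2, which withholds iron from bacteria, stood at 4.03, 0.92, 0.85, 0.51 and 0.79 in room air lungs 1 to 5 and at 4.04, 4.35, 4.13, 3.60 and 4.14 in smoke-exposed lungs 1 to 5. Room air 1 was as high as the smoke-exposed lungs and the other 4 were far below. Lcn2 rose by 2.63 ± 0.56 (SE, 6.20-fold, adjusted p = 0.0158), with smoke higher on 5 of 5 slides, and it was 9.74-fold higher without room air 1. In the red channel alone the rise of Lcn2 was 3.81 (14.0-fold) with all arrays and 4.75 (26.8-fold) without room air 1.

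Mmp8, neutrophil collagenase, stood at 2.31, 0.99, 1.12, 1.14 and 0.99 in room air and at 2.60, 2.07, 3.07, 2.49 and 2.14 with smoke. Room air 1 reached into the range of the smoke-exposed lungs here too. Mmp8 rose by 1.16 ± 0.26 (SE, adjusted p = 0.0210) and was higher on 5 of 5 slides, but leaving out room air 2, room air 3, room air 5 or smoke 1 took its adjusted p to between 0.0523 and 0.0562. It was 0.00037 when room air 1 was left out. In the red channel alone Mmp8 rose by 1.62 (3.07-fold), and its green signal was above background on none of the 10 arrays, so no fold is given for its ratio. The call was also lost in the scanner software's log ratio, where the difference was larger (1.67, adjusted p = 0.0788), and over the 11 limma fits with all 10 arrays it ran from 0.00254 to 0.0788. Pglyrp1, a peptidoglycan binding protein named here after its values were seen, did not pass with all arrays (difference 0.65, adjusted p = 0.0798) and passed with the block (adjusted p = 0.00987) and without room air 1 (0.83, adjusted p = 0.0028). With all arrays it also passed with array weights, with scaling between arrays and in both normalizations of the red channel, at 1.24 in red over the 75th percentile (adjusted p = 0.0248), but the scanner software's ratio gave 0.28 (adjusted p = 0.570).

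Of the 7 measured cytosolic genes (S100a8, S100a9, Stfa2, Stfa2l1, Stfa3, Retnlg and Padi4), 0 passed limma's threshold with all arrays and 0 had an unadjusted p under 0.05 by limma or the Wilcoxon test, and S100a8 passed without room air 1. Their differences ran from -0.43 to 0.47. The summed red signal of this list, in units of the array's 75th percentile, was 181 in room air 1, 37.6, 27.7, 33.1 and 46.1 in room air 2 to 5, and 85.3, 64.0, 46.1, 54.8 and 62.4 in smoke-exposed lungs 1 to 5. S100a9 was the brightest gene of the list in red. Room air 1 had the largest sum by far, and room air 5 and smoke 3 lay side by side.

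Of the 12 measured surface receptors 4 passed with all arrays, Cxcr1, Cd177, Il1r2 and Itgb2, and the other 8 were Csf3r, Cxcr2, Fpr1, Fpr2, Trem1, Itgam, C5ar1 and Ltb4r1. The differences of the 12 ran from -0.06 to 2.34. Cd177, a glycoprotein on the surface of neutrophils, stood at 1.78, 0.99, 1.02, 0.43 and 0.49 in room air and at 3.57, 3.40, 3.69, 2.73 and 2.99 with smoke. The groups did not overlap, with room air 1 the highest of its group. Cd177 rose by 2.34 ± 0.26 (SE, 5.06-fold, adjusted p = 0.000263) on 5 of 5 slides, although in the scanner software's log ratio it did not pass (1.55, adjusted p = 0.136, the highest over 11 limma fits with all 10 arrays, which start at 3.55e-05). In the red channel alone Cd177 rose by 3.52 (11.5-fold), while its mean green signal on the same scale went from -6.26 in room air to -4.29 with smoke. Green was well above background for Cd177 on 7 of 10 arrays, so the fold of the ratio is uncertain. Itgb2, the integrin chain that most white blood cells use to leave vessels, ran from 0.17 to 0.58 in room air and from 1.62 to 1.71 with smoke. Room air 1, at 0.34, lay inside its group for this gene. Itgb2 rose by 1.28 ± 0.07 (SE, 2.42-fold, adjusted p = 1.7e-06) on 5 of 5 slides and by 1.26 without room air 1.

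Il1r2, a decoy receptor for interleukin 1, stood at 2.48, 0.56, 0.61, 0.35 and 0.46 in room air and at 2.47, 2.31, 2.69, 2.29 and 2.39 with smoke. As with Lcn2, room air 1 matched the smoke-exposed lungs. Il1r2 rose by 1.54 ± 0.34 (SE, adjusted p = 0.0197) and was higher with smoke on 4 of 5 slides. Leaving out room air 2, room air 3, smoke 1 or smoke 3 took its adjusted p to between 0.0502 and 0.0528, and the red channel alone gave 0.0585 at a larger difference of 2.70 (6.48-fold), in a range of 0.00088 to 0.0585 over the 11 limma fits with all 10 arrays. It was 2.53e-07 when room air 1 was left out. With the mean of all its probes, Il1r2 rose by only 1.00 (adjusted p = 0.0300). Cxcr1, the other receptor for Cxcl chemokines on neutrophils, was not well above background in any room air lung and was above it in all 5 smoke-exposed lungs. Its adjusted p was 0.0010, and 0.00159 without room air 1, with smoke higher on 5 of 5 slides, and no fold is given because room air gave no level.

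Without room air 1, Fpr2, Trem1 and Itgam passed as well and were higher with smoke, and these 3 are named because their calls changed. Without that lung, Itgam passed neither in the red channel (adjusted p = 0.247) nor in the scanner software's ratio (0.198). Fpr2 then passed in the red channel (0.0151) but not in that ratio (0.754). With the block and all arrays, Itgam (0.122) and Fpr2 (0.242) did not pass. Trem1, a receptor that amplifies the response to microbes, had a difference of 0.58 with an adjusted p of 0.163 with all arrays, and it passed with the block (adjusted p = 0.0363). Of the receptor list, Itgb2 was the brightest gene in red. The summed red signal of the list was 13.3 in room air 1 and 6.47, 6.37, 5.85 and 7.82 in room air 2 to 5. In smoke-exposed lungs 1 to 5 it was 16.4, 15.0, 14.9, 13.8 and 15.2. In this sum room air 1 lay near smoke 4 and far from the other room air lungs, although for Itgb2 it lay inside its group. The median difference of the 12 receptors was 0.35, and 0.51 without room air 1. In the red channel alone it was 0.71, and 0.995 without room air 1.

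**Figure D4:**
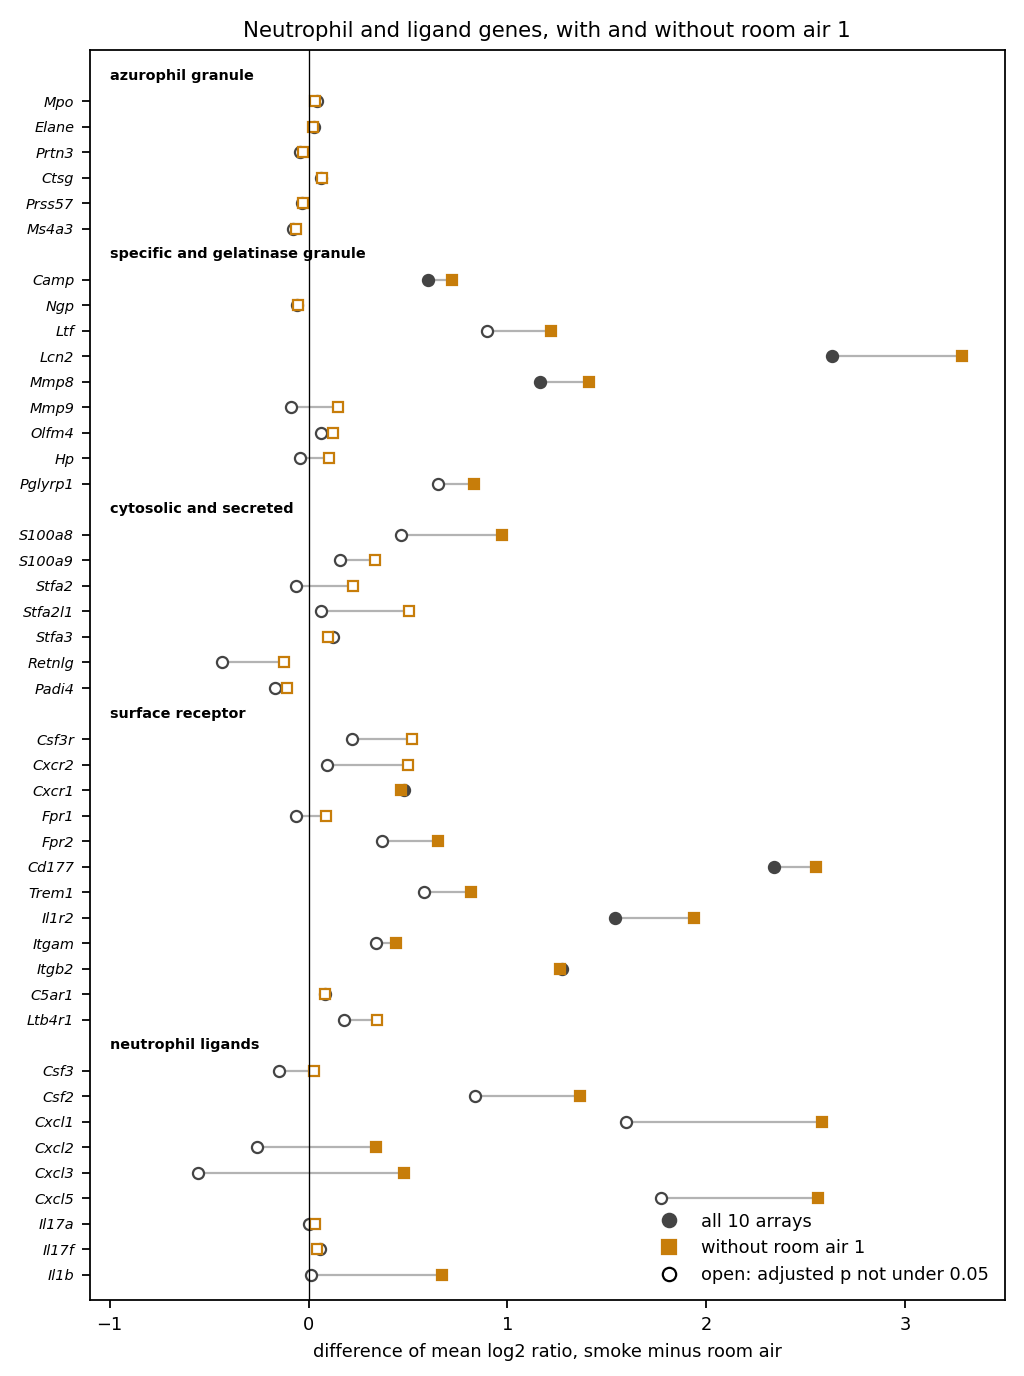
Difference in mean log2 ratio, smoke minus room air (horizontal axis), of the measured genes of the neutrophil and ligand lists with all 10 arrays (circles) and without room air 1 (squares), filled where the adjusted p was under 0.05. Among the ligands 0 of 9 circles and 6 of 9 squares are filled.

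Room air 1 also stood apart in the list of ligands that draw or feed neutrophils. Of Csf3, Csf2, Cxcl1, Cxcl2, Cxcl3, Cxcl5, Il17a, Il17f and Il1b, 0 of 9 passed limma's threshold with all arrays, 1 had an unadjusted p under 0.05 by limma and 0 by the exact Wilcoxon test, and 6 passed without room air 1, all higher with smoke. Their differences with all arrays ran from -0.56 to 1.77. The values of the ligands named next are given after they were seen. Cxcl1, a main ligand of Cxcr2, was 1.28 in room air 1, between -3.75 and -3.48 in room air 2 to 5, and between -1.33 and -0.75 in the smoke-exposed lungs. Cxcl3 was 5.19 in room air 1, between -0.15 and 0.19 in room air 2 to 5, and between 0.40 and 0.57 with smoke. Room air 1 thus exceeded every smoke-exposed lung for both, and by far. Cxcl5 was 1.63 in room air 1, between -2.42 and -2.27 in the other room air lungs and between 0.08 and 0.61 with smoke. Csf3, the ligand of Csf3r, was 0.88 in room air 1 and between -0.08 and 0.13 in the other 9 arrays, and its red signal was well above background in room air 1 alone, on 1 of 10 arrays. Of the ligands, Il1b was the brightest gene in red. The summed red signal of the list was 31.1 in room air 1 and 1.63, 1.68, 1.79 and 2.04 in room air 2 to 5. In smoke-exposed lungs 1 to 5 it was 5.43, 5.44, 5.25, 5.59 and 5.93. The part of these ligands in the levels of the 9 genes was not tested.

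Of the factors that direct granulocyte development, Gfi1, Spi1, Cebpa and Cebpb were measured, with differences from 0.19 to 0.57, and 1 of the 4 passed. Spi1, the gene of PU.1, stood at 0.47, 0.13, 0.19, -0.06 and 0.16 in room air and at 0.78, 0.72, 0.99, 0.52 and 0.73 with smoke. All smoke-exposed lungs were above all room air lungs, and room air 1 was the nearest to them. Spi1 rose by 0.57 ± 0.10 (SE, 1.49-fold, adjusted p = 0.00543) on 5 of 5 slides, and by 0.64 without room air 1. In the red channel alone Spi1 rose by 1.07 (2.10-fold), and in the scanner software's ratio by 1.12. With the block 2 of the 4 passed, and without room air 1 also 2. Cebpe had no probe named for it and was not analysed here.

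Genes of other cell types moved between the groups as well. Of 9 measured genes of alveolar macrophages, 4 were higher with smoke, with all arrays and without any 1 of them, and none was below background throughout. Their differences ran from -0.25 to 2.60. Chil3, a chitinase-like protein, was the brightest of these genes in red. Their summed red signal was 63.6, 61.8, 63.5, 59.7 and 61.5 in room air lungs 1 to 5. In smoke-exposed lungs 1 to 5 it was 193, 204, 192, 175 and 217. Room air 1 lay with its group in this sum but not in every gene. Marco was 4.86 in room air 1, between 2.49 and 3.32 in room air 2 to 5 and at least 4.97 with smoke, and Fabp4 and Car4 were highest in room air 1 of all 10 arrays. Of 7 monocyte genes, with differences from -0.33 to 0.89, 2 were higher, or 3 without room air 1. They had sums of 15.5, 14.8, 12.4, 11.9 and 12.7 in room air and of 14.1, 15.9, 14.0, 15.0 and 14.2 with smoke. Ace was the brightest of them in red. Room air 1 was the highest of the 10 arrays in 4 of these 7, Ccr2, F13a1, Ace and Treml4, with Ccr2 at 3.22 there and between 1.84 and 2.07 in room air 2 to 5. The genes singled out here for room air 1 were chosen after their values were seen. Of 4 genes of dividing cells 4 were higher, by 0.66 to 1.47, and 3 without any of room air 2, room air 3, smoke 2, smoke 4 or smoke 5. Their sums were 1.18, 1.26, 1.27, 1.52 and 1.33 in room air and 3.65, 3.46, 4.23, 4.35 and 3.49 with smoke, led by Mki67.

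Of 5 platelet genes, with differences from -0.04 to 1.06, 1 was higher, and Pf4 was the brightest in red. Their sums were 8.12, 5.81, 5.43, 6.19 and 5.80 in room air and 9.66 to 15.4 with smoke. Of 6 red blood cell genes, with differences from 0.10 to 1.29, 1 was higher, with sums of 1334, 1345, 1581, 1568 and 1992 in room air and of 2206, 2666, 1755, 1744 and 2511 with smoke, led by Hbb-bt. The platelet sums of the groups did not overlap, and the red blood cell sums did. Of 6 mast cell and basophil genes 0 were higher and 1 was lower, Cma1, which was also the brightest of them in red. The differences ran from -0.51 to 0.07. Cma1 fell by 0.51 (adjusted p = 0.0480), was lower on 5 of 5 slides and passed with the block (adjusted p = 0.0197). Its call was lost without room air 1, at a difference of -0.52 (adjusted p = 0.0575). The call was also lost without room air 2, 3 or 5 or smoke 1, 2, 4 or 5. Of 4 eosinophil genes and 4 genes each of B cells and T cells 0 passed with all arrays, at unadjusted p under 0.05 in 0, 0 and 1 of them by limma and 1, 0 and 0 by the Wilcoxon test. Their differences ran from -0.21 to 0.09, from 0.03 to 0.32 and from -0.02 to 0.43. With the block 2 T cell genes passed. Il5ra, of the eosinophil list, was above background on no array, and Ccr3, Cd79b and Cd3d were the brightest genes of these 3 lists in red. The 5 lung epithelium genes, led by Sftpc, had differences between -0.20 and 0.20, and 0 passed by limma, with 0 at an unadjusted p under 0.05 by limma or the Wilcoxon test. The part of these cell types in the levels of the 9 genes was not tested.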

How the data were processed

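Lung RNA of 5 smoke-exposed and 5 room air mice was measured on 10 Agilent arrays. The authors deposited 1 scanner file per array. These hold, per the file headers from Agilent Feature Extraction 9.5.3.1, spot and background intensity in red and in green, with marks for spots well above background and for outliers. The deposited files further hold the scanner software's corrected ratio of the channels as log10. A table of log2 values came from the authors too, each the mean of both channels after subtraction of the median background, with the groups exchanged against the scanner files, and with medians from 7.32 to 8.03 per array. That table was used as an alternative only, with its columns as labelled. The labels name a single dye, and a single-channel design could not be kept because every file has 2 colours, with lung RNA in red. The labels do not say how the mice were drawn for the arrays.

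Mean intensities were corrected against the median local background by normexp with an offset of 50, control spots were dropped, each array was normalized by loess, outlier spots were set missing (83 to 141 per array in room air and 121 to 144 in smoke), and spots of a probe were averaged. Of 41174 probes, 22951 were named through their accession, 6659 had a current symbol already, 3109 got theirs from a table of synonyms and for 8455 the name in the files was used. A gene was represented by the brightest of its probes in red over all arrays. R 4.3.3 with limma 3.58.1 (lmFit, then eBayes) served for the two-sided comparison of the groups, and p values were adjusted by Benjamini-Hochberg over 41173 probes, with a threshold of 0.05. Exact permutation tests were two-sided over the lungs, and the smallest p that 5 lungs against 5 allow is 0.00794. The steps were tested on simulated data.

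Arrays of the same number share a slide, and their deviations from the group means went together, with correlations over probes of 0.157 to 0.550 (median 0.460) in 5 pairs, against -0.377 to 0.205 (median -0.124) in the 20 pairings of different numbers. The slide thus pairs the lungs, and 3 alternatives fit it as a block. The arrays were scanned on 4 days. Of 26 alternatives, 22 were listed at the start and 4 were chosen after seeing the data. They changed the test (the Wilcoxon test, which the study's methods name, here in its exact form), the weights, the normalization, the correction for background, the channel, the filter on dim probes, the choice of probe and the block, and left out each array in turn.

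The 9 genes and the 16 gene lists were chosen with earlier results of these data known. Of the receptor list 1 gene is not reported here and enters none of the counts, ranges and sums of the lists. The text names the 9 genes with all their probes, and every gene of the neutrophil, ligand and factor lists that passed the threshold. Of each other list it gives the count, the range and the brightest gene in red. For each of the 9 genes above background in red on all 10 arrays, it names the 5 genes with the highest Pearson correlation over the arrays. Other genes that are named were chosen after their values were seen. Only the 2 motifs given were searched in the promoters. Elane and Ngp were left out of the alternatives for single genes and of the search for far values because their signal was not well above background.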

Additional observations from a re-analysis of the deposited data

Results flagged for a closer look

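For the 14 genes that were tested singly, each of 28 groups of 5 lungs was searched for a value far from the other 4, taking the gap to the nearest value as a share of the whole range of the group and asking whether it exceeded 0.71. Chance flags about 1 in 20 groups. Here 5 of 28 stood out and all 5 came from room air 1, in genes that are not independent of each other. Its S100a8 ratio was 4.39, with 2.09 as the nearest room air value, so that the gap was 0.795 of the range. Cxcr2 stood at 3.52 against 1.72, a gap of 0.742 of the range. Lcn2 stood at 4.03 against 0.92 (0.884 of the range), Mmp8 at 2.31 against 1.14 (0.885) and Il1r2 at 2.48 against 0.61 (0.879). No smoke-exposed lung stood out in this way for any of the 14 genes. What sets room air 1 apart was not tested.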

How the results depend on the processing

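Red signal over background, 1.81 to 2.46 in room air and 1.68 to 2.82 in smoke, limits Camp, Mpo and Cxcr1, and Elane and Ngp gave no level. Camp kept its direction in all 25 other fits and its call in 22, Lcn2, Cxcr1, Itgb2 and Spi1 kept direction and call in 24, Cd177 in 22, Mmp8 in 18 and Il1r2 in 17. The exact Wilcoxon test is 1 of the fits that did not call these genes. The lowest adjusted p it gave over all probes was 0.115, so none could pass and its adjusted p says nothing about any of them. Before adjustment, the Wilcoxon p was 0.00794 for Camp, Cxcr1, Cd177, Itgb2 and Spi1. It was 0.0159 for Lcn2, 0.0317 for Mmp8 and 0.0952 for Il1r2, which is not under 0.05. Mmp8 and Cd177 lost their calls in the scanner software's ratio with or without room air 1, and Il1r2 in that ratio without room air 1 and in the red channel with or without the block. The other calls of Mmp8 and Il1r2 that were lost are those given above for single arrays left out. The counts of probes and of other genes were not computed for the authors' table, nor that of probes for the mean of the probes of a gene. Where no cause is named below, the cause was not tested.

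With the replicate block, 5019 probes and 2 of the 9 genes were called, Ltf passing at 0.90, and it changed no other call among the 14 genes tested singly. With the block and without both arrays numbered 1, 6088 probes, 6 of the 9 genes and 12 of the other neutrophil genes passed, with S100a8 at 0.86, S100a9 at 0.28, Ltf at 1.17, Csf3r at 0.43 and Cxcr2 at 0.33. Leaving out each array in turn gave 2102 to 3660 probes, 1 to 3 of the 9 genes and 4 to 10 others. The differences then ran from 0.25 to 0.97 for S100a8, from -0.02 to 0.33 for S100a9, from 0.02 to 0.08 for Mpo, from 0.55 to 0.72 for Camp, from 0.68 to 1.22 for Ltf, from 0.04 to 0.52 for Csf3r and from -0.11 to 0.50 for Cxcr2. The highest of these for S100a8, S100a9, Camp, Ltf, Csf3r and Cxcr2, and the highest counts, came without room air 1. S100a9 turned to -0.017 without room air 4, and Cxcr2 to -0.11 without room air 2 and -0.07 without smoke 1.

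The exact Wilcoxon test called 0 probes, 0 of the 9 genes and 0 others after adjustment, with 5446 probes and 1 of the 9 genes at an unadjusted p under 0.05, and Camp at 0.60 could not pass, as said. Array weights called 3614 probes or 8.78% and 2 of the 9 genes, Ltf passing at 1.10. In red alone, divided by the 75th percentile, 1759 probes and 0 of the 9 genes were called, Camp losing its call at 1.80, which it also lost at 1.80 with the block added, where again 0 of the 9 passed among 3091 probes or 7.51%. Mpo turned to -0.00098 without background correction, to -0.12 in the scanner software's ratio, to -0.18 in the red channel and to -0.032 in the red channel after quantile normalization. Csf3r turned to -0.036 in the scanner software's ratio. The authors' table with its columns as labelled, in which the groups are exchanged and a value averages both channels, gave 0 of the 9 genes.

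In the 4 settings added after seeing the data, Mpo was at -0.25 in the red channel without room air 1, -0.18 in the red channel with the block, -0.16 in the scanner software's ratio without room air 1 and -0.034 in the quantile normalized red channel without room air 1. The red channel without room air 1 called 2252 probes and 3 of the 9 genes, with S100a8 at 1.11 and Ltf at 1.76. The scanner software's ratio without it called 3428 probes or 8.33% and 2 of the 9 genes, with S100a8 at 1.06 and Csf3r at -0.048, and the quantile normalized red channel called 2869 probes or 6.97% and 4 of them, with S100a8 at 0.98, S100a9 at 0.73 and Ltf at 1.65.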
